A study of Mus musculus with 4 samples.

Results

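The numbered Zfp genes are the mouse genes whose symbol is Zfp followed only by digits, most of which encode proteins with C2H2 zinc fingers. Zfp36 was left out, since it encodes tristetraprolin, an RNA-binding protein with fingers of another kind. Of 24411 gene symbols in the count files, 336 had such a name, and the 241 with at least 40 reads summed over the 4 libraries are described here. The remaining 95 fell below that minimum, and 45 of these had no read in any library. The last genes inside were Zfp811 (40 reads in all), Zfp446 (41) and Zfp608 (42), and the first outside were Zfp316 (37), Zfp109 (37) and Zfp174 (36). Zfp811 reached the minimum through its LPS libraries alone, so its difference between the groups was partly built into its choice. The same holds for members that met the minimum mainly through the group where they were higher, such as Zfp558, Zfp395 and Zfp667. Zfp558 had 4 and 9 reads without LPS and 23 and 24 with it. Zfp395 had 29 and 31 reads without LPS and 2 and 2 with it, and Zfp667 had 22 and 25 against 4 and 2. All 241 members also passed the expression filter applied to the whole table before testing.

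The libraries came from BV2 cells, an immortalised mouse microglial line, and all 4 carry the genotype label Pu.1 KO, made with CRISPR-Cas9. Of these, 2 libraries were from untreated cells and 2 from cells given lipopolysaccharide (LPS), a bacterial cell wall component sensed through TLR4, at 10 ng/ml. The exposure is 2 h by the source name and 4 h by the title, which was not resolved. The extraction text names another cell type, hMSCs, while organism and gene symbols are mouse, and this was not resolved either. Unedited cells were not analysed here, so every difference below is a difference between LPS and no LPS within cells of that label. The labels name 1 cell line and state neither whether it was a single clone nor whether the libraries came from separate cultures, and p-values therefore measure only the spread between these libraries, which may be technical. In these bulk libraries, a change in every cell cannot be told apart from a change in the share of cells that express a gene.

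Gene counts on the reverse strand, the strand of this library type, came to 4502105 and 4115011 without LPS and 3256197 and 3749159 with LPS. Levels are given as CPM, reads scaled to a common library size after TMM normalisation, which sets most genes to no net change. Spi1, which encodes PU.1, had 844 and 743 reads without LPS and 745 and 958 with it. These reads do not check the edit, because a gene edited with Cas9 can still be transcribed. All 10 microglia and macrophage markers were counted and tested, although Aif1 had only 6 to 12 reads a library. The astrocyte, neuron, oligodendrocyte, fibroblast and lymphocyte markers had 0 to 4 reads a library. Among the endothelial markers, Pecam1 had 0 reads, Cdh5 0 or 1, Kdr 64 to 88 and Vwf 23 to 57, and their part in the results was not tested.

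A C2H2 zinc finger is a short protein loop in which 2 cysteines and 2 histidines hold a zinc ion, and arrays of such fingers read DNA, with each finger contacting a few adjacent bases. Many Zfp proteins also carry a KRAB domain, which recruits the corepressor TRIM28 and with it the histone methyltransferase SETDB1, and this silences retroelements and some genes. Other numbered Zfp proteins act without KRAB, as transcription factors, as parts of corepressor complexes, or on RNA and ribosomes.

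The shared unit is visible in the coding sequences. Below is 1 finger with its linker from each of 4 members that moved after LPS, Zfp811 and Zfp558 (higher) and Zfp667 and Zfp12 (lower), read 5′ to 3′ from the longest GENCODE vM21 coding sequence. They are shown to give the common frame behind the name. Capitals mark the codons of the 2 cysteines and 2 histidines.
Zfp811, residues 223 to 248: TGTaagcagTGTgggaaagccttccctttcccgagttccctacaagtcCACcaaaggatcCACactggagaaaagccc
Zfp558, residues 158 to 183: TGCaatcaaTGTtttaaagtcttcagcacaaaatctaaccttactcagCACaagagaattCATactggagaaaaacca
Zfp667, residues 444 to 469: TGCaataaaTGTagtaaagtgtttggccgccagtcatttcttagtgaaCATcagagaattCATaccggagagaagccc
Zfp12, residues 265 to 290: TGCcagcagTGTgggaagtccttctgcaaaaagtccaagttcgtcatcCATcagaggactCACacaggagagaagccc
Over these 78 bases Zfp558 was identical to Zfp811 at 56.4%, Zfp667 at 57.7% and Zfp12 at 61.5%. The capitals stand at the same places in all 4 because each finger was found by a search that fixed this spacing. That search also required the linker, so part of the identity was set in advance.

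Of the 241 members, 239 matched a coding GENCODE transcript of the same symbol, with Zfp191 and Zfp607 unmatched. They held a median of 10 C2H2 patterns and at most 36, in Zfp142, and 5 had none. A KRAB pattern was found in 129 members, which held a median of 12 C2H2 patterns, and none was found in 110, with a median of 7. A SCAN pattern, a domain for pairing between zinc finger proteins, was found in 10. The search was by pattern, so an absent pattern does not show an absent domain. Zfp445, a known KRAB protein, had no match to the KRAB pattern, and the 110 may include other KRAB proteins.

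The numbered Zfp genes changed in both directions after LPS, in nearly equal numbers, and less than 1 in 3 passed the test. With edgeR's quasi-likelihood test at a Benjamini-Hochberg adjusted p below 0.05 over all 9992 genes tested, 77 of 241 members (32%) changed, against 51.9% of all genes. Higher after LPS were 39 members, against 26.6% of all genes, and lower were 38, against 25.3%. The remaining 164 did not pass, and 91 members had an unadjusted p under 0.05. DESeq2 called 34 members, 15 higher and 19 lower, where it called 33.3% of all genes (18.4% higher and 14.9% lower). Without untreated replicate 2, 52 members changed (40.1% of all genes did), 21 higher (20.9%) and 31 lower (19.2%).

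Most differences were small. The median log2 fold change of members was -0.03, with quartiles at -0.43 and 0.35, against 0.0006 for all genes tested (quartiles -0.42 and 0.41). Of the members, 223 had an absolute log2 fold change under 1, among them 59 of the 77 that changed. At 2-fold or more, 7 members were higher (9.47% of all genes were) and 11 lower (7.73%). Both LPS libraries lay above or below both untreated libraries in 146 members, 70 higher and 76 lower, against 75.1% of all genes, and this held for 76 of the 77 that changed. Summed over members, the level was 4813 and 4643 CPM untreated and 4702 and 4689 CPM after LPS, so the LPS libraries lay within the untreated range.

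The split into higher and lower depended on the scaling. It was 39 to 38 with TMM, 27 to 46 with upper quartile scaling, which called 22.2% of all genes higher and 30.6% lower, 23 to 44 with offsets corrected for GC content, which called 26.9% of all genes higher and 22.6% lower, and 11 to 98 with library size alone, which called 13.8% and 47.8%. Scaling by library size alone moved the median of all genes to -0.36. Across all 14 alternatives run for each gene, 28 of the 77 kept their call and direction. The 10 rises among them were Zfp281, Zfp367, Zfp513, Zfp558, Zfp622, Zfp697, Zfp719, Zfp758, Zfp811 and Zfp869. The 18 falls were Zfp12, Zfp106, Zfp142, Zfp217, Zfp219, Zfp251, Zfp296, Zfp335, Zfp358, Zfp384, Zfp395, Zfp444, Zfp473, Zfp598, Zfp667, Zfp668, Zfp692 and Zfp704. These 28 were picked out by their results and are a description. Among them, Zfp811, Zfp558, Zfp395 and Zfp667 also met the read minimum mainly through the group where they were higher.

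**Figure D1:**
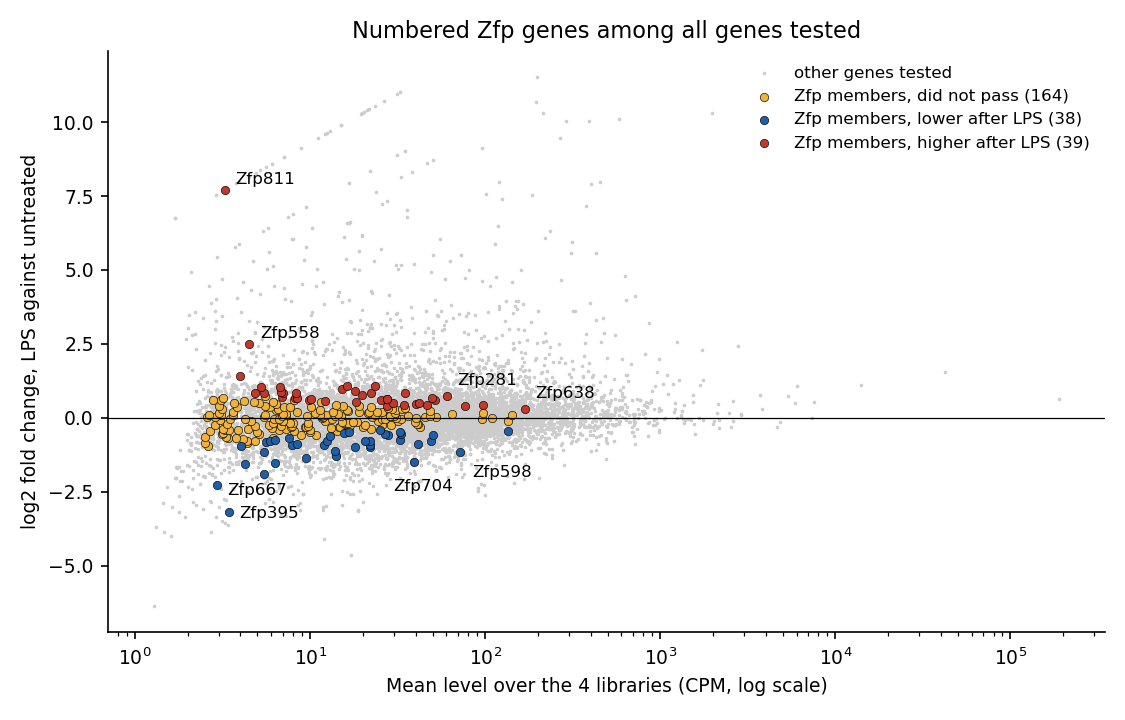
Each point is a gene, with its mean level over the 4 libraries on the x axis (CPM, log scale) and its fitted log2 fold change, LPS against untreated, on the y axis (TMM). Grey points are the other genes tested, and members are red (39 higher), blue (38 lower) or yellow (164 that did not pass). Most members lie at low levels near 0, and the fitted 7.70 of Zfp811, with no untreated read, rests on edgeR's prior count. The counts of red and blue members change with the scaling, to 11 and 98 with library size alone.

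The members were lowly expressed, and the share that changed depended on level. Their median mean level was 11.5 CPM, against 31.4 CPM for all genes tested, and their reads summed over the 4 libraries ran from 40 through a median of 182 to 2623. At 2 to 5 CPM, 16% of 50 members changed, against 29.4% of all genes at that level. The shares were 32.3% of 62 members against 38.5% at 5 to 10 CPM, and 28.3% of 53 against 43.9% at 10 to 20 CPM. They were 42.6% of 61 members against 53.6% at 20 to 50 CPM, and 53.3% of 15 against 62.1% at 50 to 200 CPM. In each of these 5 ranges the share of members was the lower of the pair, as a description without a test. The median SE of the log2 fold change was 0.34 for the 112 members under 10 CPM and 0.11 for those at 50 CPM or more, so that small changes of the former were not detectable at this depth.

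**Figure D2:**
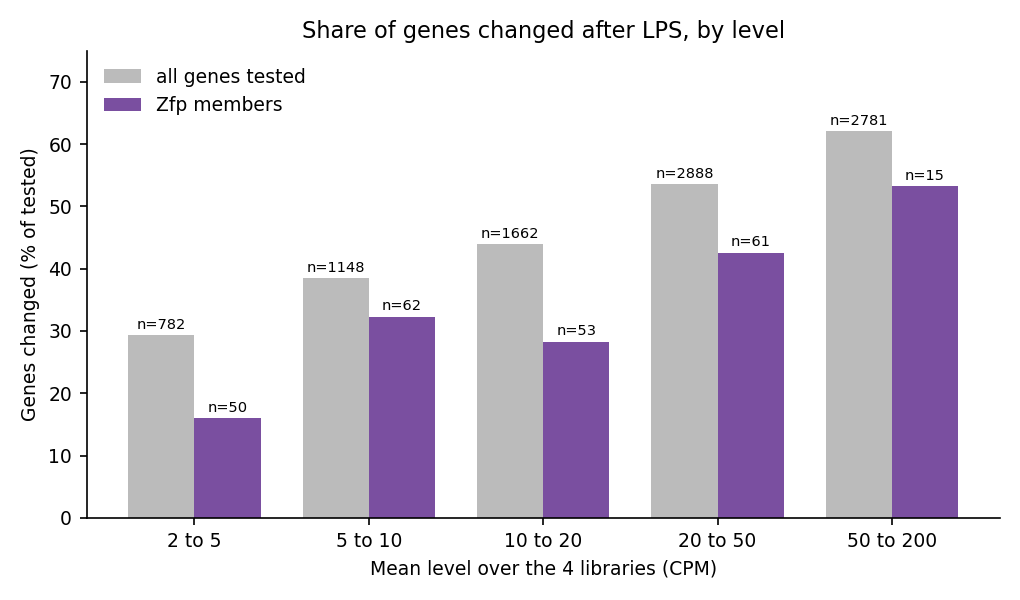
Bars give the percentage of genes that changed (edgeR adjusted p below 0.05) on the y axis in 5 ranges of mean CPM on the x axis, grey for all genes tested and purple for members, with the number of genes above each bar. In the lowest range 16% of members and 29.4% of all genes changed, and in the highest 53.3% and 62.1%.

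By mean CPM the first 10 members were Zfp638, Zfp207, Zfp106, Zfp706, Zfp148, Zfp330, Zfp445, Zfp871, Zfp710 and Zfp598, of which 3 rose, 2 fell and 5 did not pass. Of all genes in their range of 50 to 200 CPM, 62.1% changed. Per kilobase of the longest transcript, the only scale on which levels of different genes are compared here, the order began with Zfp207 at 43.1 CPM per kb, Zfp706 at 30.4, Zfp330 at 27.0, Zfp598 at 21.3 and Zfp638 at 18.6. Zfp207, a spindle assembly factor also known as BuGZ, stood at 145 and 128 CPM without LPS and 146 and 147 CPM with it (log2 fold change 0.10, SE 0.10, adjusted p = 0.409). Its groups did not overlap, but the difference did not pass. Zfp871, a KRAB member, stood at 102 and 93.8 CPM without LPS and 105 and 84.1 CPM with it, with overlapping groups (log2 fold change -0.05, SE 0.11, adjusted p = 0.703). Zfp871 was called lower with library size only and GC-corrected offsets, over a range of adjusted p from 0.0016 to 0.987. Zfp710 rose from 65.98 and 67.01 CPM to 84.9 and 88.3 CPM (log2 fold change 0.38, SE 0.11, adjusted p = 0.0041), and both LPS libraries were the higher ones. Zfp710 lost its call with library size only, DESeq2 and without untreated replicate 1 (adjusted p = 0.067), and its adjusted p ran from 3.9e-06 to 0.877 over the 14 alternatives.

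Among the rises, a KRAB gene without any untreated read came first. Zfp811 had 0 and 0 reads without LPS and 21 and 19 with it, so it was at least 21.04-fold higher against a floor of 3 reads over the untreated group, a floor that covers counting error only. Zfp558, also a KRAB gene, had 4 and 9 reads without LPS and 23 and 24 with it, or 0.765 and 1.99 CPM without LPS and 7.97 and 7.29 CPM with it (log2 fold change 2.48, SE 0.43, adjusted p = 2.7e-06). For both genes the LPS libraries were close to each other and far above the untreated ones, at few reads. Both met the 40-read minimum through the LPS libraries alone or mainly, so part of this gap was set by their choice. Zfp74 had 13 and 8 reads without LPS and 17 and 19 with it (log2 fold change 1.42, SE 0.40, adjusted p = 0.0025), with no overlap. Zfp74 lost its call with DESeq2, and its adjusted p ran from 0.0021 to 0.083 over the 14 alternatives.

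The rises that followed were about 2-fold, at higher counts for 4 genes and low counts for the others. Zfp513, which in humans is linked to inherited retinal degeneration, rose from 13.8 and 16.4 CPM to 29.8 and 33.4 CPM (log2 fold change 1.08, SE 0.18, adjusted p = 1.1e-06). Zfp758, a KRAB gene, rose from 11.1 and 9.73 to 19.4 and 24.3 CPM (log2 fold change 1.07, SE 0.21, adjusted p = 2.7e-05). Zfp697 rose from 10.7 and 9.73 to 19.4 and 20.6 CPM (log2 fold change 0.97, SE 0.21, adjusted p = 1.4e-04). In all these genes the higher untreated library was well below the lower LPS library. Zfp719, a KRAB gene, rose from 13.2 and 11.9 to 22.9 and 23.98 CPM (log2 fold change 0.89, SE 0.19, adjusted p = 1.3e-04), again without overlap.

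Zfp382, Zfp658 and Zfp438 rested on few reads. Zfp382, a KRAB gene, had 13 and 20 reads without LPS and 26 and 17 with it (log2 fold change 1.03, SE 0.37, adjusted p = 0.016). Zfp658, a KRAB gene, had 21 and 22 reads without LPS and 22 and 34 with it (log2 fold change 1.03, SE 0.31, adjusted p = 0.0049). Zfp438 had 32 and 15 reads without LPS and 24 and 31 with it (log2 fold change 0.88, SE 0.32, adjusted p = 0.017). In CPM the groups did not overlap for any of the 3, but each call ended when single libraries were left out. Zfp382 lost its call with library size only, DESeq2, without untreated replicate 1 (adjusted p = 0.234) and without LPS replicate 1 (adjusted p = 0.312), and its adjusted p ran from 0.0025 to 0.312 over the 14 alternatives. Zfp658 lost its call with library size only, DESeq2, without untreated replicate 1 (adjusted p = 0.064) and without LPS replicate 2 (adjusted p = 0.108), and its adjusted p ran from 0.0023 to 0.116 over the 14 alternatives. Zfp438 lost its call with library size only, DESeq2, without untreated replicate 2 (adjusted p = 0.261) and without LPS replicate 2 (adjusted p = 0.089), and its adjusted p ran from 0.0051 to 0.261 over the 14 alternatives.

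The largest fall was that of Zfp395, known as a protein that binds a papillomavirus control region and the huntingtin promoter. It had 29 and 31 reads without LPS and 2 and 2 with it, or 5.55 and 6.86 CPM without LPS and 0.693 and 0.607 CPM with it, a fall of 9.12-fold (log2 fold change -3.19, SE 0.55, adjusted p = 2.7e-06). Zfp667, a KRAB gene, had 22 and 25 reads without LPS and 4 and 2 with it (log2 fold change -2.28, SE 0.53, adjusted p = 3.2e-04). Both were near the limit of detection after LPS, with no overlap between the groups. They met the read minimum mainly through the untreated libraries, so part of this gap was set by their choice. Zfp296, a nuclear protein expressed in pluripotent cells, fell from 9.18 and 7.96 to 3.12 and 1.52 CPM (log2 fold change -1.91, SE 0.38, adjusted p = 3.9e-05). Zfp473, a component of the machinery that forms histone mRNA ends, fell from 8.80 and 9.95 to 2.43 and 3.95 CPM (log2 fold change -1.52, SE 0.34, adjusted p = 2.0e-04). In these genes too both LPS libraries were the low ones.

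Zfp704 and Zfp598 fell at much higher counts. Zfp704 had 276 and 283 reads without LPS and 62 and 63 with it and fell from 57.7 ± 6.93 to 20.3 ± 1.67 CPM (SD, n = 2 each; log2 fold change -1.50, SE 0.15, adjusted p = 8.0e-12). Zfp598, the ubiquitin ligase that detects collided ribosomes, had 513 and 446 reads without LPS and 116 and 159 with it and fell from 98.4 ± 0.374 to 44.2 ± 5.71 CPM (SD, n = 2 each; log2 fold change -1.15, SE 0.12, adjusted p = 3.7e-11). The spread within each pair was small beside the gap between the pairs in both genes. Zfp358 fell from 20.7 and 19.5 to 8.66 and 7.59 CPM (log2 fold change -1.31, SE 0.23, adjusted p = 4.1e-06).

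Zfp526 and Zfp629 completed the 10 largest falls, together with Zfp668, given with the DNA-binding factors below. Zfp526 had 26 and 35 reads without LPS and 7 and 6 with it (log2 fold change -1.56, SE 0.42, adjusted p = 0.0017). Zfp629 had 43 and 31 reads without LPS and 5 and 16 with it (log2 fold change -1.15, SE 0.37, adjusted p = 0.0074). Both LPS libraries were below both untreated ones, with a wide gap between the LPS libraries of Zfp629. Zfp526 lost its call with DESeq2 and without untreated replicate 2 (adjusted p = 0.063), and its adjusted p ran from 1.4e-05 to 0.065 over the 14 alternatives. Zfp629 lost its call with DESeq2, without untreated replicate 1 (adjusted p = 0.068) and without LPS replicate 1 (adjusted p = 0.177), and its adjusted p ran from 6.7e-05 to 0.177 over the 14 alternatives.

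**Figure D3:**
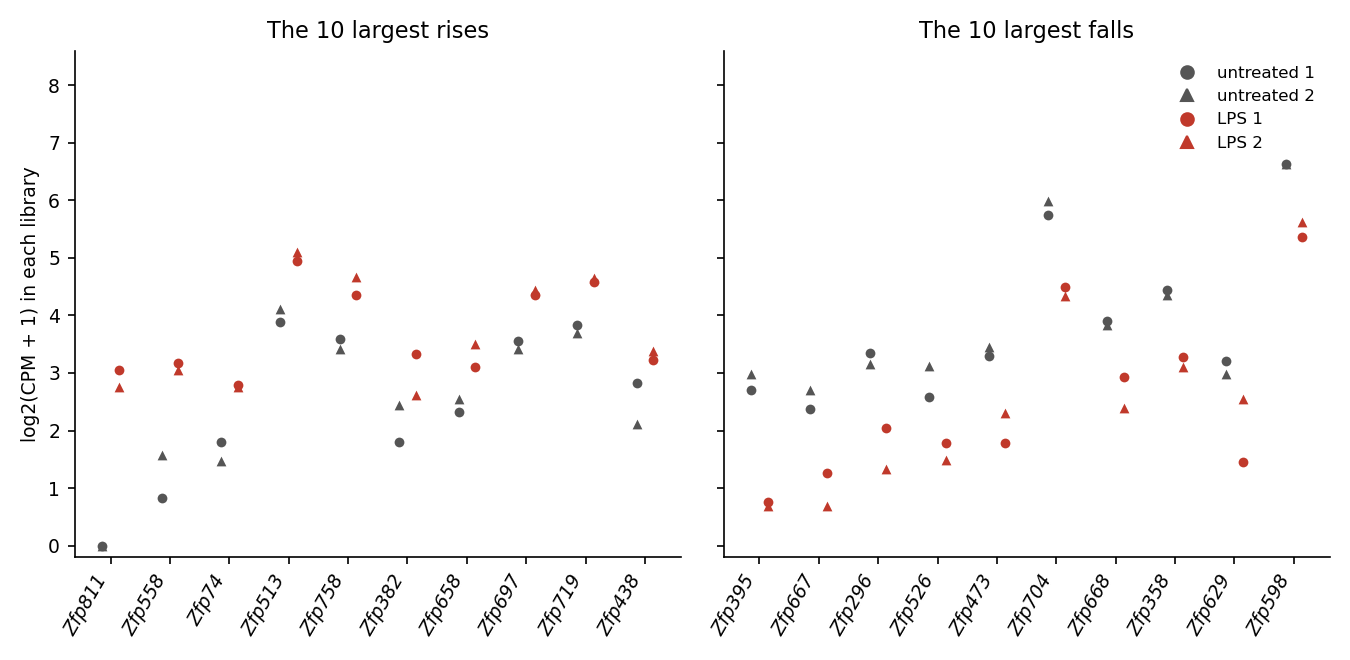
The 10 largest rises (left) and 10 largest falls (right) by fitted log2 fold change among changed members with a mean of at least 2 CPM, with log2(CPM + 1) of each library on the y axis, grey for untreated, red for LPS, circles for replicate 1 and triangles for replicate 2. The groups do not overlap in any of the 20 genes, and the LPS libraries of Zfp629 (1.73 and 4.86 CPM) lie farthest apart in proportion.

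Of 53 Zfp symbols listed by known role, 43 were members, and 9 of these were higher, 11 lower and 23 did not pass, against 26.6% of all genes higher and 25.3% lower, and these shares apply to each list below. The lists overlap in Zfp598, Zfp91, Zfp335 and Zfp608. KRAB and related genes known for control of retroelements and imprints did not pass the threshold under TMM. Of 9 listed, Zfp57, Zfp819 and Zfp42 had no read, and 0 of the 6 tested passed in either direction, by edgeR or by DESeq2 (1 had an unadjusted p under 0.05, lower), with a median log2 fold change of 0.06 against 0.0006 for all genes. Zfp445, which protects imprints, stood at 93.9 and 88.2 CPM without LPS and 101 and 104 CPM with it (log2 fold change 0.17, adjusted p = 0.186). Zfp809, which silences murine leukaemia viruses, stood at 19.5 and 16.1 CPM without LPS and 18.02 and 22.5 CPM with it (log2 fold change 0.18, adjusted p = 0.436). Both LPS libraries of Zfp445 lay above the untreated ones, and the groups of Zfp809 overlapped. Zfp568, which represses a placental Igf2 transcript, stood at 27.9 and 27.4 CPM without LPS and 25.99 and 20.9 CPM with it (log2 fold change -0.25, adjusted p = 0.219). Zfp961 stood at 15.1 and 22.6 CPM without LPS and 14.6 and 12.4 CPM with it (log2 fold change -0.47, adjusted p = 0.067), and it had the lowest p of the list. Zfp961 was called lower with upper quartile scaling, library size only, no expression filter, GC-corrected offsets, without untreated replicate 1 (adjusted p = 0.011) and without LPS replicate 1 (adjusted p = 0.047), over a range of adjusted p from 3.2e-04 to 0.643. Zfp568 was called lower with library size only, over a range of adjusted p from 0.0013 to 0.735. Zfp932 (log2 fold change 0.28, adjusted p = 0.46) and Zfp708 (log2 fold change -0.04, adjusted p = 0.943) had the fewest reads, and every 101-base window of Zfp708 was shared with another transcript, so its counts are uncertain.

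Chromatin and transcription cofactors moved both ways. Of 13 listed, Zfp532 and Zfp462 had 4 and 6 reads in all, and of the 11 tested 3 were higher and 2 lower, with a median of 0.06 (26.6% and 25.3% of all genes were). Zfp217, part of CtBP and LSD1 corepressor complexes, fell from 28.9 and 26.1 to 19.4 and 13.1 CPM (log2 fold change -0.78, SE 0.19, adjusted p = 4.9e-04). Zfp687, which works with ZMYND8 and Zfp592, fell from 30.4 and 32.95 to 20.4 and 22.8 CPM (log2 fold change -0.54, SE 0.16, adjusted p = 0.0048), while Zfp592 stood at 20.8 and 16.8 CPM without LPS and 14.2 and 13.96 CPM with it and did not pass (log2 fold change -0.43, adjusted p = 0.078). All 3 of these were lower in both LPS libraries. Zfp644, a partner of the histone methyltransferases G9a and GLP, rose from 23.9 and 16.1 to 35.3 and 25.8 CPM (log2 fold change 0.58, SE 0.19, adjusted p = 0.0093). Zfp516, an activator of Ucp1 in brown fat, rose from 29.5 and 37.6 to 51.6 and 41.9 CPM (log2 fold change 0.48, SE 0.15, adjusted p = 0.005). Zfp292 rose from 24.7 and 22.6 to 28.4 and 34.00 CPM (log2 fold change 0.40, SE 0.16, adjusted p = 0.032). The 3 rises were modest, and none was called under every alternative.

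The other cofactors of that list did not pass. Zfp703, a corepressor with a single atypical finger, stood at 4.78 and 6.41 CPM without LPS and 3.47 and 2.73 CPM with it (log2 fold change -0.84, adjusted p = 0.064), and Zfp276 at 39.2 and 48.4 CPM without LPS and 37.8 and 38.3 CPM with it (log2 fold change -0.20, adjusted p = 0.241). Both were lower in both LPS libraries. Zfp131 (log2 fold change 0.06, adjusted p = 0.716), Zfp609 (log2 fold change 0.15, adjusted p = 0.524), a partner of the cohesin loader NIPBL, and Zfp608 (log2 fold change 0.10, adjusted p = 0.87) had overlapping groups. Zfp592 was called lower with upper quartile scaling and library size only, over a range of adjusted p from 5.3e-04 to 0.465. Zfp703 was called lower with upper quartile scaling and library size only, over a range of adjusted p from 0.0045 to 0.365. Zfp276 was called lower with library size only, over a range of adjusted p from 4.7e-04 to 0.856. Of the changed cofactors, only Zfp217 kept its call throughout. Zfp687 lost its call with DESeq2, GC-corrected offsets and without untreated replicate 2 (adjusted p = 0.057), and its adjusted p ran from 7.9e-07 to 0.119 over the 14 alternatives. Zfp644 lost its call with library size only, DESeq2, GC-corrected offsets, without untreated replicate 2 (adjusted p = 0.215) and without LPS replicate 1 (adjusted p = 0.148), and its adjusted p ran from 1.6e-04 to 0.262 over the 14 alternatives. Zfp516 lost its call with library size only, DESeq2, without untreated replicate 1 (adjusted p = 0.201) and without LPS replicate 1 (adjusted p = 0.081), and its adjusted p ran from 1.0e-04 to 0.474 over the 14 alternatives. Zfp292 lost its call with upper quartile scaling, library size only, DESeq2, GC-corrected offsets, without untreated replicate 1 (adjusted p = 0.081), without untreated replicate 2 (adjusted p = 0.213) and without LPS replicate 2 (adjusted p = 0.287), and its adjusted p ran from 0.011 to 0.83 over the 14 alternatives.

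Among DNA-binding factors with known targets, 6 of 8 tested changed, 2 higher and 4 lower, with a median of -0.30, where 51.9% of all genes changed. Zfp143 had 24 reads in all and Zfp711 and Zfp827 none. Zfp281, a factor of pluripotent cells, rose from 47.8 and 42.7 to 75.2 and 76.8 CPM (log2 fold change 0.75, SE 0.12, adjusted p = 1.2e-06). Zfp263 rose from 14.2 and 15.5 to 22.5 and 27.3 CPM (log2 fold change 0.76, SE 0.19, adjusted p = 6.4e-04). Both genes were clearly higher in both LPS libraries. Zfp263 lost its call with library size only, and its adjusted p ran from 1.4e-04 to 0.065 over the 14 alternatives. Zfp148, which shares its binding preference for GC-rich DNA with Zfp281, stood at 116 and 103 CPM without LPS and 108 and 111 CPM with it and did not pass (log2 fold change -0.0023, adjusted p = 0.986). The groups of Zfp148 overlapped. Zfp148 was called lower with library size only and GC-corrected offsets, over a range of adjusted p from 0.0042 to 0.999.

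The 4 falls among these factors kept their calls under every alternative. Zfp384 fell from 56.2 and 65.02 to 41.9 and 38.6 CPM (log2 fold change -0.59, SE 0.13, adjusted p = 1.9e-04). Zfp335, needed in neural progenitors and T cells, fell from 61.01 and 63.03 to 41.2 and 31.6 CPM (log2 fold change -0.78, SE 0.14, adjusted p = 3.9e-06). Zfp219 fell from 29.5 and 27.9 to 14.6 and 15.8 CPM (log2 fold change -0.91, SE 0.18, adjusted p = 3.3e-05). In each of the 3, both LPS libraries were below both untreated ones by more than either pair's spread. Zfp668 fell from 13.96 and 13.3 to 6.58 and 4.25 CPM (log2 fold change -1.35, SE 0.28, adjusted p = 7.1e-05), again without overlap. Zfp410, an activator of Chd4, stood at 30.4 and 29.4 CPM without LPS and 37.1 and 37.04 CPM with it and did not pass (log2 fold change 0.31, adjusted p = 0.074), while Chd4 itself was lower (log2 fold change -0.86, adjusted p = 7.4e-12).

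Genes acting on RNA, ribosomes and splicing were all counted, and of 12 tested 4 were higher and 3 lower, with a median of 0.08, where 51.9% of all genes changed. Zfp622, which acts in maturation of the large ribosomal subunit, rose from 24.5 and 25.4 to 40.2 and 48.6 CPM (log2 fold change 0.84, SE 0.15, adjusted p = 5.2e-06). Zfp830, a splicing-associated protein, rose from 19.7 and 23.2 to 35.3 and 31.9 CPM (log2 fold change 0.65, SE 0.16, adjusted p = 7.4e-04). Zfp330, a nucleolar protein, rose from 85.3 and 78.95 to 114 and 109 CPM (log2 fold change 0.44, SE 0.11, adjusted p = 5.4e-04). Each of these was higher in both LPS libraries. Zfp638, an RNA-binding protein that recruits the HUSH complex to unintegrated retroviral DNA, rose from 160.1 and 141 to 178 and 193 CPM (log2 fold change 0.30, SE 0.09, adjusted p = 0.0062), the smallest of the 4 rises. Zfp638 lost its call with upper quartile scaling, library size only, DESeq2, GC-corrected offsets and without untreated replicate 2 (adjusted p = 0.224), and its adjusted p ran from 6.1e-04 to 0.745 over the 14 alternatives. Zfp330 lost its call with library size only and GC-corrected offsets, and its adjusted p ran from 2.4e-04 to 0.578 over the 14 alternatives. Zfp830 lost its call with library size only, and its adjusted p ran from 3.6e-04 to 0.126 over the 14 alternatives.

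The falls in this list were Zfp598, given above, Zfp106 and Zfp346. Zfp106, an RNA-binding protein needed in motor neurons, fell from 150.1 and 162 to 126 and 103 CPM (log2 fold change -0.44, SE 0.10, adjusted p = 2.4e-04). Zfp346, which binds double-stranded RNA, fell from 28.9 and 28.3 to 27.03 and 16.1 CPM (log2 fold change -0.43, SE 0.18, adjusted p = 0.047), with 1 LPS library close to the untreated pair. Zfp346 lost its call with DESeq2, GC-corrected offsets, without untreated replicate 1 (adjusted p = 0.139), without untreated replicate 2 (adjusted p = 0.097) and without LPS replicate 2 (adjusted p = 0.759), and its adjusted p ran from 3.3e-05 to 0.759 over the 14 alternatives. Of the 5 that did not pass, Zfp706, a small protein with 1 finger, stood at 140.2 and 140.0 CPM without LPS and 134 and 124 CPM with it (log2 fold change -0.12, adjusted p = 0.292), and Zfp593, a factor of ribosome export, at 25.2 and 23.2 CPM without LPS and 27.7 and 27.3 CPM with it (log2 fold change 0.18, adjusted p = 0.367). Neither pair of groups overlapped, and both gaps were small. Zfp277 (log2 fold change 0.07, adjusted p = 0.723) and Zfp326 (log2 fold change 0.0037, adjusted p = 0.991), a subunit of the DBIRD splicing complex, had overlapping groups, and Zfp207 is given above. Zfp706 was called lower with library size only and GC-corrected offsets, over a range of adjusted p from 5.5e-05 to 0.635. Zfp593 was called higher with GC-corrected offsets, over a range of adjusted p from 0.014 to 0.772.

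The ubiquitin and SUMO ligases comprised Zfp598, which fell, and Zfp91 and Zfp451, which did not pass, so 0 of 3 were higher and 1 lower (median 0.04), by edgeR and by DESeq2. Zfp91, a ubiquitin ligase of the kinase NIK, stood at 29.8 and 26.3 CPM without LPS and 29.1 and 29.8 CPM with it (log2 fold change 0.06, adjusted p = 0.75). Zfp451, a SUMO ligase, stood at 53.4 and 49.98 CPM without LPS and 56.1 and 50.4 CPM with it (log2 fold change 0.04, adjusted p = 0.814). The groups overlapped in both. Of 9 genes listed for immune and blood cells, Zfp521 and Zfp423 had no read, and of 7 tested 0 were higher and 3 lower, with a median of -0.49, where 26.6% of all genes were higher and 25.3% lower. DESeq2 called 0 higher and 2 lower, and at an unadjusted p under 0.05 the counts in this list and among the ligases were those of the adjusted test. The 3 were Zfp395 and Zfp335, given above, and Zfp64, reported to promote TLR signalling to NF-kB, which fell from 37.3 and 39.1 to 23.6 and 30.4 CPM (log2 fold change -0.49, SE 0.15, adjusted p = 0.0063). Zfp64 lost its call with DESeq2, GC-corrected offsets, without untreated replicate 2 (adjusted p = 0.056) and without LPS replicate 1 (adjusted p = 0.105), and its adjusted p ran from 4.8e-07 to 0.462 over the 14 alternatives. Zfp318, which sets IgD expression in B cells, stood at 41.7 and 46.4 CPM without LPS and 42.6 and 33.7 CPM with it (log2 fold change -0.21, adjusted p = 0.209), and Zfp467 at 3.63 and 3.32 CPM without LPS and 0.693 and 2.73 CPM with it (log2 fold change -0.96, adjusted p = 0.106). Zfp318 was called lower with library size only, GC-corrected offsets and without LPS replicate 1 (adjusted p = 0.044), over a range of adjusted p from 3.3e-04 to 0.846. Zfp467 was called lower with library size only and without LPS replicate 2 (adjusted p = 0.026), over a range of adjusted p from 0.014 to 0.656.

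**Figure D4:**
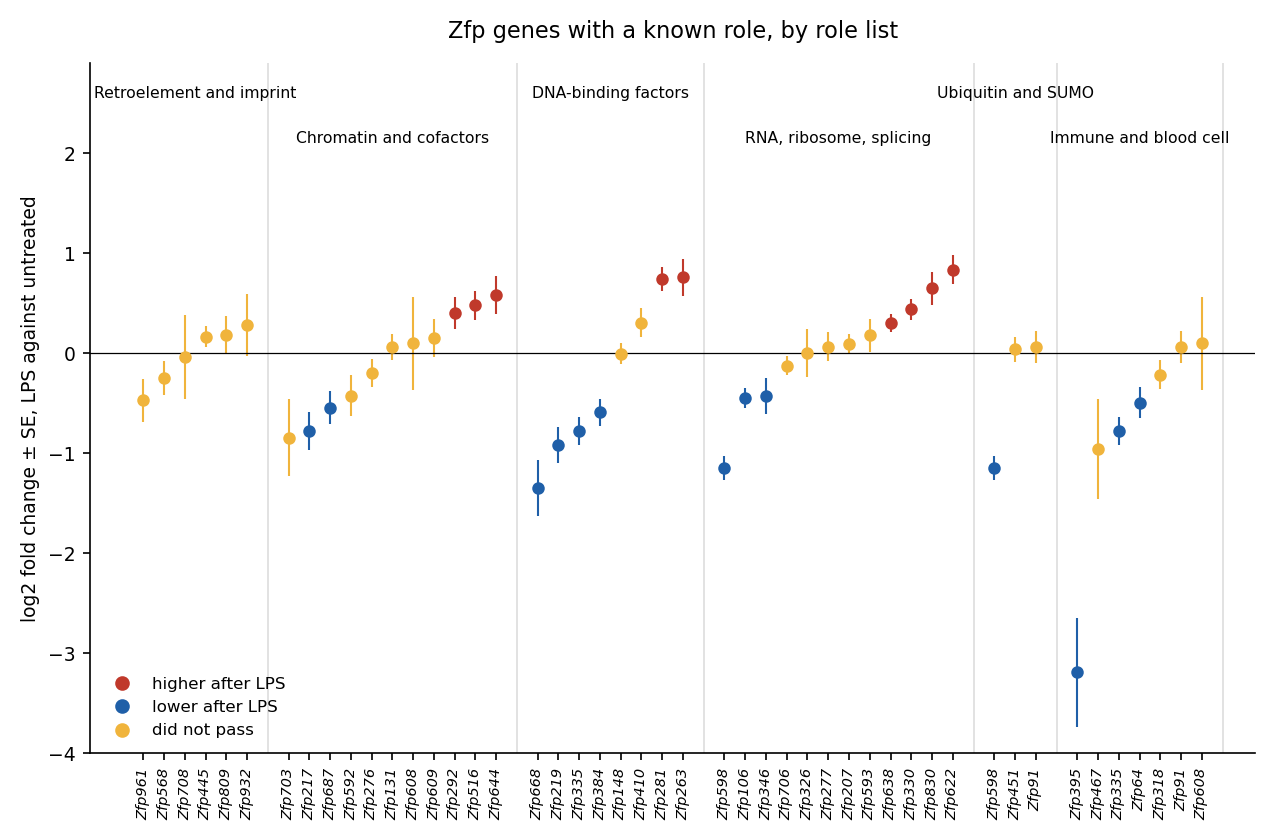
Fitted log2 fold change, LPS against untreated, on the y axis for the members of the 6 role lists on the x axis, with bars of 1 SE, red for higher, blue for lower and yellow for not passed. Under TMM none of the 6 retroelement and imprint genes and 6 of 8 DNA-binding factors passed, where 51.9% of all genes did. The median levels of these lists were 17.6 and 41.3 CPM, and a difference between them was not tested. With library size alone 14 genes of the 6 lists went from above to below 0.

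The partners of KRAB proteins were measured from a list of 30 genes, all tested, of which 6 were higher and 11 lower, or 56.7% changed, with a median of -0.17. That share is close to the 51.9% of all genes that changed (26.6% higher and 25.3% lower). Trim28, the corepressor that KRAB domains bind, fell from 262 and 242 to 93.6 and 78.02 CPM (log2 fold change -1.56, SE 0.10, adjusted p = 1.9e-18). Chd4, the NuRD remodeller, fell from 416 and 379.9 to 218 and 220.1 CPM (log2 fold change -0.86, adjusted p = 7.4e-12), Mbd3 of the same complex from 119 and 134 to 67.6 and 70.1 CPM (log2 fold change -0.87, adjusted p = 3.0e-09) and Dnmt3b, a de novo DNA methyltransferase, from 28.7 and 26.5 to 9.70 and 8.80 CPM (log2 fold change -1.58, adjusted p = 7.7e-09). All were lower in both LPS libraries, Trim28 and Dnmt3b by more than 2-fold. Setdb1, the histone methyltransferase, did not pass (log2 fold change -0.21, adjusted p = 0.08). Morc3, a silencing ATPase, rose from 20.1 and 22.1 to 62.7 and 57.4 CPM (log2 fold change 1.51, adjusted p = 9.4e-13), Hdac1, a histone deacetylase, from 25.6 and 27.6 to 48.2 and 48.6 CPM (log2 fold change 0.86, adjusted p = 1.3e-06) and Fam208a, a HUSH subunit also called TASOR, from 30.98 and 24.1 to 46.8 and 45.2 CPM (log2 fold change 0.73, adjusted p = 4.1e-05).

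The further changed cofactors were lower for Dnmt1 (-0.67), Mta1 (-0.61), Mta3 (-0.63), Gatad2b (-0.59), Trim33 (-0.37), Cbx5 (-0.30) and Gatad2a (-0.27) and higher for Dnmt3a (0.37), Hdac2 (0.29) and Rbbp4 (0.25), all as log2 fold changes. With library size alone Hdac2 and Rbbp4 had negative values. Of 12 NuRD genes in the list, 3 were higher and 6 lower, where 26.6% of all genes were higher and 25.3% lower. DESeq2 called 11 of the 30 cofactors, where it called 33.3% of all genes. Dnmt3a lost its call with upper quartile scaling, library size only, DESeq2, without untreated replicate 1 (adjusted p = 0.057), without untreated replicate 2 (adjusted p = 0.099) and without LPS replicate 1 (adjusted p = 0.205), and its adjusted p ran from 3.0e-04 to 0.933 over the 14 alternatives. Hdac2 lost its call with upper quartile scaling, library size only, DESeq2, no expression filter, the filter of 1 CPM, GC-corrected offsets, without untreated replicate 1 (adjusted p = 0.053), without untreated replicate 2 (adjusted p = 0.435) and without LPS replicate 2 (adjusted p = 0.347), and its adjusted p ran from 0.0079 to 0.66 over the 14 alternatives. Rbbp4 lost its call with upper quartile scaling, library size only, DESeq2, GC-corrected offsets, without untreated replicate 1 (adjusted p = 0.067), without untreated replicate 2 (adjusted p = 0.267) and without LPS replicate 1 (adjusted p = 0.051), and its adjusted p ran from 0.008 to 0.359 over the 14 alternatives. Mta3 lost its call without untreated replicate 2 (adjusted p = 0.085), and its adjusted p ran from 1.2e-09 to 0.085 over the 14 alternatives. Gatad2a lost its call with DESeq2, GC-corrected offsets, without untreated replicate 1 (adjusted p = 0.051) and without untreated replicate 2 (adjusted p = 0.173), and its adjusted p ran from 8.0e-08 to 0.524 over the 14 alternatives. Gatad2b lost its call with DESeq2, without untreated replicate 1 (adjusted p = 0.06) and without LPS replicate 2 (adjusted p = 0.118), and its adjusted p ran from 3.3e-06 to 0.129 over the 14 alternatives. Trim33 lost its call with DESeq2, without untreated replicate 1 (adjusted p = 0.343) and without LPS replicate 2 (adjusted p = 0.136), and its adjusted p ran from 8.4e-06 to 0.343 over the 14 alternatives.

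Under TMM scaling more KRAB members were higher than lower and more of the other members were lower than higher, while after correction for GC content both classes had more members lower than higher. Of 129 members with the pattern, 21 were higher and 10 lower (24% changed), with a median log2 fold change of 0.05, against 26.6% of all genes higher and 25.3% lower. Of 110 without it, 18 were higher and 28 lower (41.8% changed), with a median of -0.15. Median GC content was 41.4% in the KRAB members and 48.8% in the others, and their median levels were 8.04 and 16.5 CPM. With offsets corrected for GC content, 8 KRAB members were higher and 19 lower (median -0.14), against 15 and 25 of the others (median -0.21), where 26.9% of all genes were higher and 22.6% lower. The direction of the KRAB members also turned with upper quartile scaling, to 13 higher and 15 lower (22.2% and 30.6% of all genes), and with library size alone, to 6 and 39 (13.8% and 47.8%). Without untreated replicate 2 the KRAB counts were 9 and 9 (20.9% and 19.2%). The difference between the classes was not tested, and 8 KRAB members and 20 of the others kept their calls under every alternative.

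The genes tested were divided by GC content into 5 bins of equal size. Over all genes, the median log2 fold change went from 0.28 in the lowest bin (29.6% to 43.6% GC) to -0.31 in the highest (55.2% to 72.5%). The members' medians were 0.07 (113 members), -0.07 (38), 0.08 (28), -0.43 (25) and -0.49 (35) from the lowest bin to the highest, so GC-rich members lay lower. In the lowest bin 24.8% of members changed, against 50.6% of all genes there, and in the highest 45.7% against 59.3%. GC content was that of the longest transcript and was known for 239 members and 96.6% of all genes tested. Its part in the members' differences was not tested further than by the corrected offsets.

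**Figure D5:**
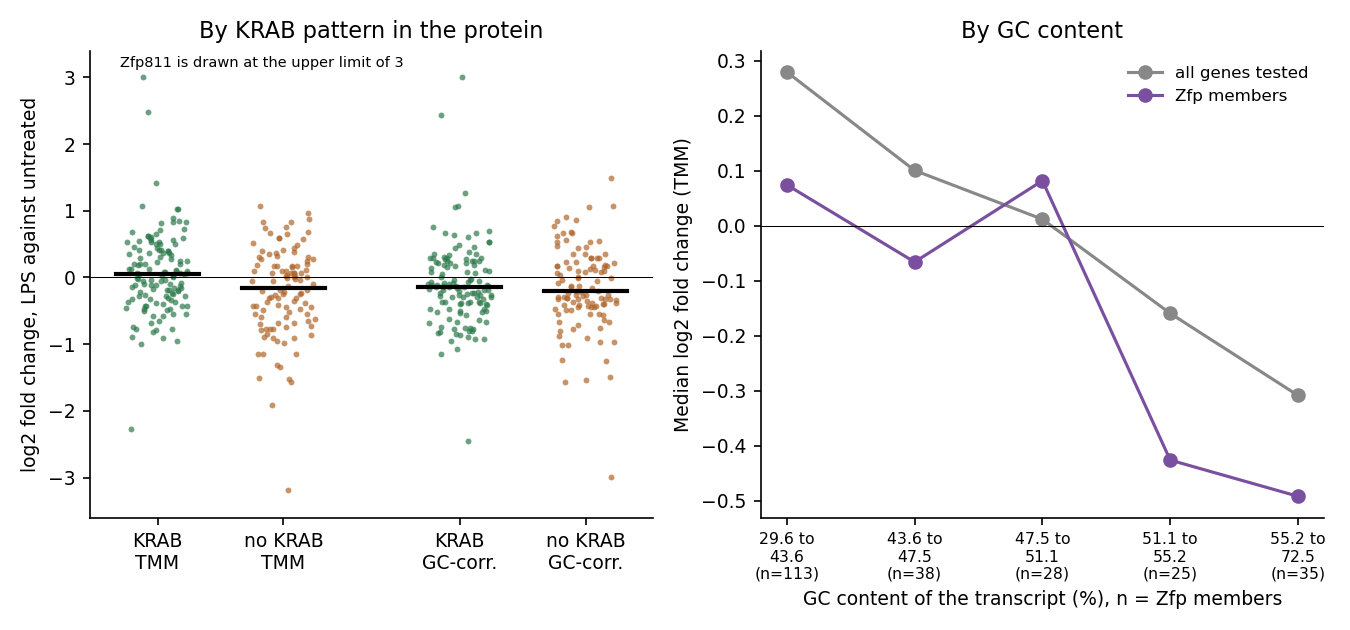
Left, log2 fold changes of single members (points) and their medians (bars) for 129 members with and 110 without a KRAB pattern, under TMM and after GC correction, with Zfp811 drawn at the upper limit of 3. Right, median log2 fold change under TMM on the y axis against 5 bins of GC content on the x axis, for members and all genes tested. The KRAB median is 0.05 under TMM and -0.14 after GC correction, so its direction turns with the scaling.

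By number of C2H2 patterns, 6 of 23 members with 0 to 2 were higher and 4 lower, and 6 of 47 with 3 to 7 were higher and 10 lower. With 8 to 12 patterns 15 of 90 were higher and 11 lower, and with 13 or more 12 of 79 were higher and 13 lower, where 26.6% of all genes were higher and 25.3% lower. Of the 10 SCAN members, 1 was higher and 1 lower. Related names outside the members had lower medians. Of 36 Zbtb genes, which pair fingers with a BTB domain, 3 were higher and 12 lower (median -0.27). Of 15 Zscan and Zkscan genes 0 were higher and 3 lower (median -0.16; the same counts at an unadjusted p under 0.05, and 0 and 1 by DESeq2), and of 13 Zfp symbols that end in a letter 1 was higher and 4 lower (median -0.24). These counts stand against the same 26.6% and 25.3% of all genes. The differences from the members were not tested.

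Many Zfp genes lie in tandem clusters, and the members were grouped where at most 2 other protein-coding genes stood between neighbours in RefSeq order (GRCm38.p6). Of 239 members with a position, 134 fell into 42 such groups, 96 of them with a KRAB pattern, and 105 stood alone. No member changed in 14 groups. At least 2 changed in 8 groups, with all in the same direction in 6 and in both directions in 2. These counts stand beside 32% of members and 51.9% of all genes that changed (26.6% of all genes higher and 25.3% lower). Whether neighbours changed together more often than other members was not tested. The largest group had 13 members, from Zfp566 to Zfp74, of which Zfp382 and Zfp74 were higher and none lower. In the group of Zfp758 all 6 KRAB genes had log2 fold changes above 0 under TMM, from 0.01 to 1.07, and 2 were called higher. With GC-corrected offsets 4 of the 6 were below 0, and with library size alone also 4. The pairs Zfp668 with Zfp646, Zfp526 with Zfp574 and Zfp217 with Zfp64 were lower together, and Zfp719 with Zfp658 higher together, and of these 8 genes Zfp668, Zfp217 and Zfp719 were among the 28 that kept their calls. Zfp811 differed from its own neighbours. Next to it, Zfp799 fell, with 45 and 32 reads without LPS and 14 and 15 with it (log2 fold change -0.74, SE 0.32, adjusted p = 0.048), and Zfp871 did not pass. Zfp799 was not among the 28.

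RefSeq promoters (GRCm38.p6, 250 bases before to 50 after the start) matched 200 of 241 members. The promoters of the 2 largest rises are shown because they differ in the GC box GGGCGG, in capitals, read 5′ to 3′ on the gene's strand.
Zfp811, chr17:32809882-32810181, minus strand: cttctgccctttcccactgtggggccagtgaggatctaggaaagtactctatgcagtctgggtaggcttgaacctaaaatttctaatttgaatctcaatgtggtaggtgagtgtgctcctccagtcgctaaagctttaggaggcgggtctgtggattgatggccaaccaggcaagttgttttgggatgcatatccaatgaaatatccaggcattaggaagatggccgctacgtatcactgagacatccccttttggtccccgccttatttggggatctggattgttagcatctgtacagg
Zfp558, chr9:18473596-18473895, minus strand, 1 of its 2 windows: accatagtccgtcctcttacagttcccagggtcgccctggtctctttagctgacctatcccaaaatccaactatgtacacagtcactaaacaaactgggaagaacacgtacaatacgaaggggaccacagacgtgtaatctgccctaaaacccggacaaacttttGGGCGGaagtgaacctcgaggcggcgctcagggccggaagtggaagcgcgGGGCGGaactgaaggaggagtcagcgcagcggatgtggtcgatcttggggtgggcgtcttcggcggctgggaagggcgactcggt
Zfp558 held 2 GC boxes and 22 CG dinucleotides in this window, and Zfp811 no GC box and 5 CG dinucleotides. On both strands, GGGCGG was found in 49.5% of members and 38.2% of all genes with a promoter. All genes in this paragraph are the 27025 with a promoter, which were not limited to the genes tested. They are therefore not a like baseline for the members, and shares among changed and unchanged genes tested were not taken. GGGCGG was found in 23 of 35 members that were higher, 21 of 32 that were lower and 55 of 133 that did not pass. It was also found in 40.5% of members with a KRAB pattern and 61.9% of those without. These classes differed in the share that changed too (24% and 41.8%), and the part of class in these counts was not tested. The interferon response core, which is GAAA, any 2 bases and GAAA again, was found in 2.5% of members and 3.99% of all genes, in 1 of 35 members higher (Zfp935) and 0 of 32 lower. The NF-kB form, which is GGGA, any base, TT, any base and CC, was found in 2.5% of members and 1.38% of all genes, in 1 of 35 higher (Zfp617) and 1 of 32 lower (Zfp111). A match is a stretch of letters and not a site shown to be bound.

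Counting limits touched few members. Of the 101-base windows of each longest transcript, a median of 0% was shared with another gene's transcript. Over 20% was shared in 11 members, of which 4 changed, Zfp524 (43.6%), Zfp414 (42.0%), Zfp617 (34.0%) and Zfp935 (99.3%), and their counts are uncertain. Zfp811, Zfp558, Zfp395 and Zfp667 shared 0%. Reads on the opposite strand came to 1.14% of the members' strand-specific reads, and to over 10% in 7 members, among them Zfp276 (27.3%), Zfp335 (15.4%) and Zfp668 (12.6%). Counted without strand, Zfp593 kept 0.233, Zfp213 0.654 and Zfp276 0.765 of its reverse-strand reads.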

How the data were processed

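RNA was measured in 4 libraries, rRNA-depleted and strand-specific per the labels' protocols. The deposited files hold whole read counts for each gene and library, laid out as STAR writes them and, from the values, not normalised. Per the submitters' processing notes the tools included Trimmomatic 0.33 and STAR 2.5.1, with CASAVA 1.8.2 and DESeq2, and the build is human hg19. The symbols are mouse, so no coordinates of the files are given. Which annotation was counted is not given in the sources used. STAR counts uniquely placed reads. The 4 summary lines held 67.2% of reads in each untreated library and 72.9% and 72.3% in the LPS libraries. They were counted neither towards library size nor as genes. Of uniquely placed reads, 53.0% and 51.8% fell in no gene without LPS and 59.1% and 57.4% with it. Unmapped reads were 19.0% and 20.7% without LPS and 23.0% and 24.2% with it. Reads placed at several sites were 10.5% and 10.6% against 10.1% and 10.3%. These shares separated the groups, and their part in the differences was not tested.

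The reverse-strand counts of the 9992 genes kept by filterByExpr were tested with edgeR 4.0.16 (quasi-likelihood, robust, TMM, treatment as the only term, two-sided) in R 4.3.3, with Benjamini-Hochberg adjustment over all of them and a threshold of 0.05. The SE is approximate and was taken as the log2 fold change over the root of the F statistic. Named are the 10 most counted members, the 10 largest rises and falls among changed members with a mean of at least 2 CPM, all role-list members, the genes at the 40-read edge and the changed cofactors. Others, such as Zfp799, Zfp12 and genes in groups, were picked once their values were known. The members and lists were chosen with earlier results of these data known. KRAB, SCAN and C2H2 patterns were searched in translated GENCODE vM21 coding sequences, a choice made after the files were seen.

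Alternatives were RLE, upper quartile and library size scaling, DESeq2 1.42.0, other filters, unstranded counts, a replicate block, GC-corrected offsets (span 0.5), 5 abundant entries left out, each library left out, and minimums of 20 and 100 reads for members. The scripts were tested on simulated data. Chi-square per degree of freedom over members was 1.37 in the untreated and 1.20 in the LPS pair, above sampling noise, and each library was kept as 1 sample.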

Additional observations from a re-analysis of the deposited data

How the results depend on the processing

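The count of 77 changed members was 34 with DESeq2 and 52 to 67 with 1 library left out, and it was within 1.5 times of 77 under the other alternatives, up to 109 with library size alone. Members higher (39) were 11 with library size alone, 15 with DESeq2, 23 with GC-corrected offsets and 21 to 33 with 1 library left out, lowest without untreated replicate 2. Members lower (38) were 98 with library size alone, 19 with DESeq2 and 30 to 34 with 1 library left out. The median log2 fold change of Zfp members (-0.03) was -0.126 with upper quartile scaling, -0.387 with library size alone, -0.146 with GC-corrected offsets, -0.00323 with a minimum of 100 reads and -0.0519 to 0.0136 with 1 library left out, above 0 only without untreated replicate 1. Changed cofactors (17) were 11 with DESeq2 and 11 to 16 with 1 library left out. With library size alone the log2 fold changes of 16 of 79 named genes turned negative. Of these, Hdac2 (-0.0704), Rbbp4 (-0.112), Zfp207 (-0.262), Zfp451 (-0.319) and Zfp638 (-0.0567) are the ones called under TMM or under that scaling. That scaling moved all genes down by a median of 0.36, and the cause of the other shifts was not tested. The share of all genes that changed was 51.9% under TMM, 33.3% with DESeq2, 49.5% with GC-corrected offsets and 61.6% with library size alone. It was also lower than under TMM with each library left out. The counts of members and cofactors stand beside these shifts over all genes. In fits that leave out a library, the lone library is assumed to vary like the other group.

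With the replicate number as a block, 68 members changed (34 higher, 34 lower), where 51.8% of all genes changed, and 67 of the 77 kept their call. Deviations of same-numbered libraries correlated at -0.0435 over all genes, so no pairing by number was seen. A weak pairing could go unseen in this value. Depth limits the 112 members under 10 CPM most.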

Other observations

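Reads on the strand opposite to a member were rare except at a few genes. They exceeded 10% of the reads in 7 members, of which Zfp276 (27.3%) and Zfp335 (15.4%) had enough for the same edgeR test on the opposite-strand counts. At Zfp276 there were 100 and 96 such reads without LPS and 22 and 29 with it (log2 fold change -1.38, adjusted p = 1.3e-04). At Zfp335 there were 58 and 58 against 18 and 16 (log2 fold change -1.20, adjusted p = 0.0032). Both were lower after LPS in both libraries. The share of all genes called lower on the opposite strand is not given here, so these falls are not shown to be particular to Zfp276 and Zfp335. On its own strand Zfp276 did not pass and Zfp335 fell, and the source of the opposite-strand reads was not tested.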
